A study of Homo sapiens with 6 samples.

Results

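Transcripts of 49 genes that drive or mark mitosis and the G2/M transition were followed in SH-SY5Y, a human neuroblastoma line, differentiated with retinoic acid and made insulin resistant. The 49 genes were chosen by symbol as a list of mitotic cyclins and kinases and of checkpoint, kinetochore, spindle and cytokinesis genes. All 49 were found among the 61860 genes of the deposited table. Every library came from cells given all-trans retinoic acid in low serum, then insulin at 100 nM with D-glucose at 30 mM for 24 h to induce insulin resistance (IR). The IR control group had nothing further, and the IR+Oligonol group was also given Oligonol, a polyphenol preparation from lychee fruit, at 500 ng/mL for 24 h, with 3 libraries in each group. The comparison asks how Oligonol altered transcript levels in insulin-resistant cells. Cells without induced insulin resistance, and any measure of cell number or of cell cycle phase, were not analysed here. The cells are from a single tumour-derived line. The sources used here do not say if replicate libraries stem from separate cultures, and a p-value then reflects only the spread among libraries, which may be technical.

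Entry into mitosis is driven by cyclin-dependent kinase 1 with its A- and B-type cyclins, which the CDC25 phosphatases switch on. The spindle assembly checkpoint then holds the anaphase-promoting complex inactive until kinetochores, the protein assemblies on centromeric chromatin, are bound by spindle microtubules. Separase afterwards cuts the cohesin that joins sister chromatids, and a central spindle and contractile ring divide the cell. Many of these genes are transcribed together late in the cell cycle through paired promoter elements, a CCAAT box bound by NF-Y and a cell cycle genes homology region (CHR) bound by MuvB complexes, and they are repressed through the DREAM complex when cells leave the cycle. Retinoic acid slows division of neuroblastoma cells as they take on neuronal features. In bulk RNA, fewer dividing cells and less transcript per dividing cell cannot be told apart.

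The promoters of 4 members are shown because they carry CCAAT boxes, and all but that of CENPF also a CHR match, upstream of genes whose levels went opposite ways. Each is the 150 bases before the transcription start, 5′ to 3′ on the gene's strand, from RefSeq (GRCh38.p14), and capitals mark CCAAT or TTTGAA on either strand (ATTGG and TTCAAA on the other).
MKI67, chr10:128126424-128126573, - strand: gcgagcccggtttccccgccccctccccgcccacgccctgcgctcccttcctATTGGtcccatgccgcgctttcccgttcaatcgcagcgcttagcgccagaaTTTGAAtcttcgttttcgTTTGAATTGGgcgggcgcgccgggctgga
CENPF, chr1:214603045-214603194, + strand: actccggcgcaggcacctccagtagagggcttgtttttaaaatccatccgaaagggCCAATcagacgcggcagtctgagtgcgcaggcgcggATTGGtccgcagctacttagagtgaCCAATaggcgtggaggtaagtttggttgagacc
CDC20, chr1:43358831-43358980, + strand: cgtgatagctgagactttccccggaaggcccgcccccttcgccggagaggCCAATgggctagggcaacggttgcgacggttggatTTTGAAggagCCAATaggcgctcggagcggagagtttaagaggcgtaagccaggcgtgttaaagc
ESPL1, chr12:53268149-53268298, + strand: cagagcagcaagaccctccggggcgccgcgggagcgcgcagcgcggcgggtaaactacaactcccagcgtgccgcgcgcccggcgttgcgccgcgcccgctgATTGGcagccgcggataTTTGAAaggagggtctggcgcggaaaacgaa
MKI67 and CENPF rose with Oligonol and CDC20 and ESPL1 fell. In these letters MKI67 had a CHR match at -29 to -24 that shared a base with a CCAAT box on the other strand at -24 to -20, and CDC20 had a CHR match at -65 to -60 near a CCAAT box at -55 to -51, both counted from the start site. Windows from 250 bases before to 50 bases after the start were found for 41 of the 49 members, without AURKA, BIRC5, BUB3, FOXM1, KNL1, RACGAP1, TPX2 and TTK. CCAAT was present in 80.5% of these members and TTTGAA in 65.9%, against 39.7% and 18.2% of all 27305 genes with such windows. Both were present in 53.7% of members and 7.26% of all genes. Of the members that rose, 14 of 18 with a window held CCAAT and 11 held TTTGAA. Of those that fell, 7 of 7 held CCAAT and 4 held TTTGAA, and of those not called 12 of 16 held each. A match describes the letters of a window, not binding.

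Levels are given in CPM, a gene's estimated count per 1000000 of the library total after TMM scaling, which sets the bulk of genes level between libraries. Control libraries 1 to 3 held 22738203, 25328857 and 32209583 estimated counts and Oligonol libraries 1 to 3 held 19457923, 20912945 and 20100206, and the estimated count of a single member lay between 3.2 and 384.79. Protein-coding genes held 6.24 to 6.83% of these totals in controls and 10.0 to 12.3% with Oligonol. Weighted by counts, protein-coding genes had a median GC content of 56.0 to 56.3% in controls against 51.2, 54.1 and 51.6% in Oligonol libraries 1 to 3, so library 2 lay between its group and the controls. Among the markers of noradrenergic neuroblasts, 9 of 11 were above 1 CPM in all libraries, with TH near 0, and the list's summed level was 240.2 to 289.2 CPM in controls and 146.3 to 206.3 with Oligonol. Mesenchymal markers summed to 62.07 to 84.61 and 49.09 to 53.53 CPM, glial markers to 1.569 to 1.938 and 1.566 to 2.004 CPM, and myeloid markers to 0.594 to 1.552 and 0.803 to 1.383 CPM. The part of composition, of GC content or of these markers in the results on the members was not tested, except where the GC trend was removed as described below.

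The mitotic genes split with Oligonol: 21 of the 49 rose, 8 fell and 20 did not pass the test (adjusted p under 0.05 over all tested genes). That is 42.9% of the members higher and 16.3% lower, where 26% of all 16574 tested genes were called higher and 23% lower, and the difference between these shares was not tested. All 49 passed the filter on low values. The members' median log2 fold change was 0.45, against 0.15 over all tested genes and 0.03 over tested protein-coding genes. On the TMM scale the summed level of all 49 overlapped between groups, at 159.48, 177.76 and 175.98 CPM in controls and 177.71, 171.46 and 179.91 CPM with Oligonol. As a share of protein-coding counts it did not overlap, at 0.172, 0.161 and 0.150% in controls and 0.277, 0.211 and 0.264% with Oligonol. Whether the sum differed thus depends on the scale. The directions of the calls are likewise relative to TMM scaling: scaled by library totals alone, which moved the median of all genes to 1.53 on the log2 scale, 44 members were called and all 49 had a fold change above 0, where DESeq2 with its own size factors gave 20 higher and 8 lower. The groups did not overlap for 22 of the 49 members in the higher and 11 in the lower direction, among them all 29 called members. Over all tested genes the shares were 33.9% in the higher and 28.9% in the lower direction. A call and a lack of overlap rest on the same values, so they are not separate support. The calls went with base composition: transcripts of the members that rose had at most 48.3% GC and those of the members that fell at least 51.0%, and with each library's trend on GC content removed 0 members rose and 2 fell (edgeR, 20 at an unadjusted p under 0.05). Of the 21 that rose, Oligonol library 2 was the lowest of its group for 18, and control library 3 the lowest control for 15.

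**Figure D1:**
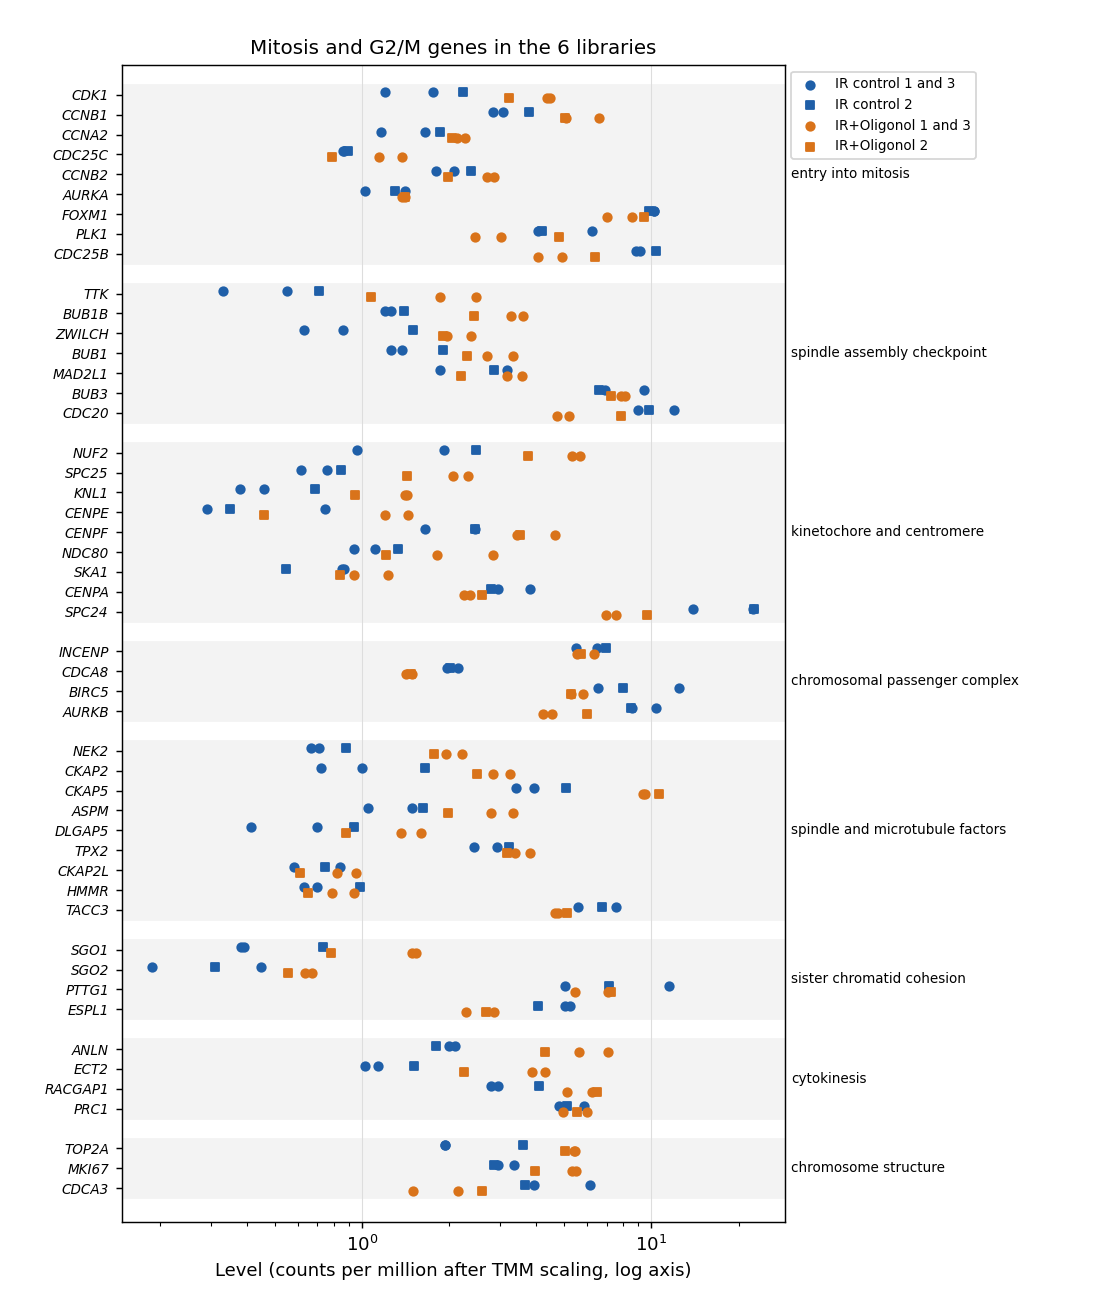
Level of each of the 49 genes in each library (points; CPM after TMM scaling on a log axis), grouped by role; blue, IR control; orange, IR+Oligonol; squares, library 2 of each group. The 21 genes called higher and the 8 called lower have groups that do not overlap, and in 18 of the 21 the orange square is the lowest orange point.

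The kinase and cyclin that start mitosis rose. CDK1, the kinase itself, stood at 1.76, 2.22 and 1.20 CPM in control libraries 1 to 3 and at 4.34, 3.21 and 4.47 CPM in Oligonol libraries 1 to 3, a log2 fold change of 1.21 ± 0.25 (SE; adjusted p = 0.00993). Its partner CCNB1, cyclin B1, stood at 2.84, 3.76 and 3.06 CPM in controls and 5.06, 5.03 and 6.56 CPM with Oligonol (0.79 ± 0.20, adjusted p = 0.0151). Every Oligonol library was above every control for both genes. CDC25B, a phosphatase that activates CDK1, fell, from 8.83, 10.3 and 9.10 CPM to 4.05, 6.39 and 4.89 CPM (-0.89 ± 0.21, adjusted p = 0.0133).

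The other 6 genes of mitotic entry did not pass the test. CCNA2, cyclin A2, was measured at 1.64, 1.86 and 1.16 CPM in controls and 2.12, 2.05 and 2.27 CPM with Oligonol, groups that did not overlap (0.45 ± 0.22, adjusted p = 0.116). FOXM1, the transcription factor that acts on many G2/M promoters, was among the highest members, at 10.2, 9.82 and 10.2 CPM against 6.9995, 9.39 and 8.59 CPM (-0.28 ± 0.18, adjusted p = 0.230). The Polo-like kinase gene PLK1 had overlapping groups, 6.24, 4.19 and 4.06 CPM against 2.45, 4.81 and 3.01 CPM (-0.51 ± 0.29, adjusted p = 0.182). AURKA, the centrosomal Aurora kinase, was nearly level, at 1.02, 1.30 and 1.41 CPM against 1.40, 1.40 and 1.37 CPM (0.17 ± 0.22, adjusted p = 0.537). Its named copy AURKAP1 stood at 2.09, 1.29 and 1.24 estimated counts in controls and 13.53, 4.14 and 16.33 with Oligonol. AURKA itself had 17.19, 20.02 and 24.07 against 52.47, 36.09 and 47.56 estimated counts. In Oligonol library 3 the copies CCNB2P1 and MAD2L1P1 had 9.52 and 5.66. Any sharing of reads between members and copies was not tested. The regulators that passed the test thus included a kinase and cyclin that rose and a phosphatase that fell.

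Of the 7 checkpoint genes, 4 rose and 1 fell. TTK, the kinase also called MPS1 that starts checkpoint signalling at kinetochores (chromosome 6, 80003887 to 80042527, + strand), had the largest rise of the 49. Its levels were 0.549, 0.711 and 0.331 CPM in controls and 2.47, 1.07 and 1.85 CPM with Oligonol (1.76 ± 0.39, adjusted p = 0.0112). BUB1B, which encodes the BubR1 subunit of the inhibitor of the anaphase-promoting complex, rose from 1.26, 1.39 and 1.20 CPM to 3.596, 2.43 and 3.26 CPM (1.28 ± 0.21, adjusted p = 0.00723). Its controls lay close together and all Oligonol libraries were above them. The kinase BUB1 rose from 1.37, 1.91 and 1.26 CPM to 3.33, 2.30 and 2.70 CPM (0.87 ± 0.24, adjusted p = 0.0204), and ZWILCH, a subunit of the complex that brings dynein to kinetochores, from 0.859, 1.5003 and 0.627 CPM to 1.96, 1.90 and 2.37 CPM (1.07 ± 0.31, adjusted p = 0.0237).

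The activator that the checkpoint holds back went the other way. CDC20, the coactivator of the anaphase-promoting complex, fell from 8.99, 9.79 and 11.95 CPM to 4.71, 7.81 and 5.18 CPM (-0.80 ± 0.24, adjusted p = 0.0273). MAD2L1, the checkpoint protein that binds CDC20, had overlapping groups, 3.16, 2.85 and 1.86 CPM against 3.17, 2.20 and 3.58 CPM (0.19 ± 0.26, adjusted p = 0.561). The ratio of CDC20 to MAD2L1 overlapped between groups, at 2.845, 3.438 and 6.414 in controls and 1.485, 3.552 and 1.445 with Oligonol.

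At the kinetochore 4 of 9 genes rose and 1 fell, and the split ran through a single complex. The NDC80 complex, which binds microtubules at the outer kinetochore, is built of the products of NDC80, NUF2, SPC24 and SPC25. NUF2 rose from 1.92, 2.48 and 0.956 CPM to 5.30, 3.73 and 5.67 CPM (1.48 ± 0.33, adjusted p = 0.0116). SPC25 rose from 0.758, 0.841 and 0.613 CPM to 2.06, 1.42 and 2.32 CPM (1.41 ± 0.27, adjusted p = 0.00881). SPC24 had the largest fall of the 49, from 13.9, 22.7 and 22.5 CPM to 7.51, 9.68 and 6.97 CPM (-1.29 ± 0.26, adjusted p = 0.00955). NDC80 itself, at 1.11, 1.33 and 0.934 CPM against 2.83, 1.21 and 1.81 CPM, did not pass the test, and Oligonol library 2 lay within the controls (0.78 ± 0.34, adjusted p = 0.0845).

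The ratio of SPC24 to SPC25, whose products pair with each other in the complex, was 18.34, 26.98 and 36.72 in controls and 3.646, 6.797 and 2.999 with Oligonol. SPC24 remained the most abundant of the 4 transcripts in every library, since its ratio to NUF2 was still 1.417, 2.596 and 1.229 with Oligonol. The genes lie apart, SPC24 on chromosome 19 (11131520 to 11155807), SPC25 on chromosome 2 (168834132 to 168913371), NUF2 on chromosome 1 (163266576 to 163355764) and NDC80 on chromosome 18 (2571557 to 2616635). The first 90 coding bases of each are shown because the subunits differ in base composition as they do in direction. They are from the GENCODE 29 coding sequence, 5′ to 3′, with G and C in capitals.
NDC80: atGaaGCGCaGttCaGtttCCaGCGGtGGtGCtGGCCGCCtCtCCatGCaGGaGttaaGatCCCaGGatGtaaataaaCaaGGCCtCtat
NUF2: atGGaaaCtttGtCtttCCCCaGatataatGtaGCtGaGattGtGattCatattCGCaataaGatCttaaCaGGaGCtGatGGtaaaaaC
SPC25: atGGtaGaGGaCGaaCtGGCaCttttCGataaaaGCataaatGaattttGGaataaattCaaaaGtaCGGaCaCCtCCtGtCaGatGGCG
SPC24: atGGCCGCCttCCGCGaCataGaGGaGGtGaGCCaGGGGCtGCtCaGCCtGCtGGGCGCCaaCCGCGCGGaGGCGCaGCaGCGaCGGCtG
G and C made up 51.11% of these bases in NDC80, 35.56% in NUF2, 40% in SPC25 and 72.22% in SPC24. Over the whole coding sequence the shares were 39.3, 37.21, 37.2 and 61.56%.

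**Figure D2:**
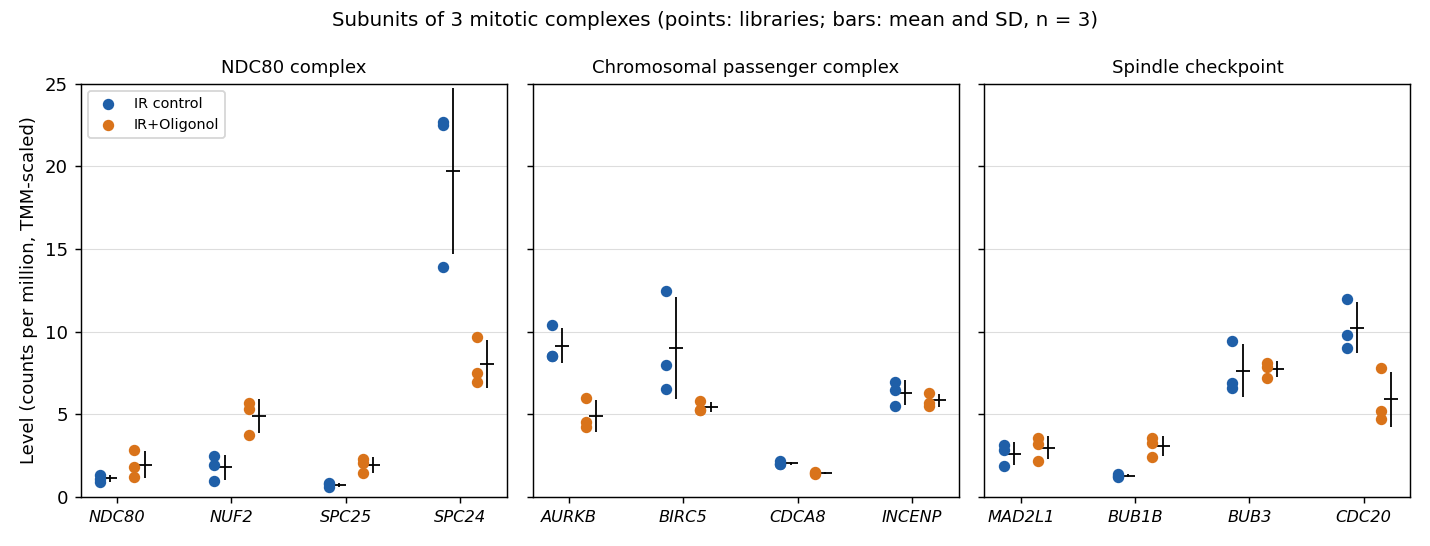
Levels (CPM after TMM scaling, linear axis from 0) of the subunits of the NDC80 complex, of the chromosomal passenger complex and of 4 spindle checkpoint genes; points are libraries and bars the mean and SD over 3. SPC24 falls from a control mean of 19.7 to 8.05 CPM while NUF2 rises from 1.78 to 4.90 CPM, and INCENP overlaps between groups.

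Other kinetochore genes also rose. KNL1, the scaffold on which BUB1 and BUB1B assemble, rose from 0.456, 0.686 and 0.379 CPM to 1.43, 0.945 and 1.41 CPM (1.30 ± 0.34, adjusted p = 0.0171). CENPF, a large protein of the outer kinetochore in G2 and mitosis, rose from 2.45, 2.46 and 1.65 CPM to 4.65, 3.52 and 3.42 CPM (0.83 ± 0.23, adjusted p = 0.0204). CENPA, the histone H3 variant that marks centromeres, was measured at 3.81, 2.79 and 2.94 CPM against 2.25, 2.59 and 2.36 CPM, without overlap but without passing the test (-0.40 ± 0.19, adjusted p = 0.110).

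The chromosomal passenger complex, which corrects wrong kinetochore attachments and later acts in cytokinesis, had 3 of 4 members that fell and 1 that did not pass the test. The median GC content of its transcripts was 54.2%, against 40.1 to 48.3% in the other 7 role groups. AURKB, its kinase, fell from 8.54, 8.52 and 10.4 CPM to 4.22, 6.003 and 4.52 CPM (-0.90 ± 0.20, adjusted p = 0.0116). BIRC5, which encodes survivin, fell from 6.54, 7.99 and 12.5 CPM to 5.26, 5.28 and 5.80 CPM (-0.73 ± 0.25, adjusted p = 0.0440), and CDCA8, which encodes borealin, from 1.97, 2.01 and 2.15 CPM to 1.41, 1.48 and 1.48 CPM (-0.49 ± 0.18, adjusted p = 0.0476). The call of CDCA8 ended under DESeq2 (adjusted p = 0.114), upper-quartile scaling (0.0884), TMM over protein-coding genes (0.0736), the replicate block (0.144), no filter (0.12) and the stricter filter (0.308). That of BIRC5 ended under upper-quartile scaling (adjusted p = 0.0605), limma-voom (0.0527), no filter (0.118) and the stricter filter (0.0869), so 1 of the 3 falls, that of AURKB, was called in all of these. INCENP, the scaffold of the complex, had overlapping groups at 5.48, 6.94 and 6.50 CPM against 5.51, 5.69 and 6.31 CPM (-0.11 ± 0.17, adjusted p = 0.612).

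Among 9 spindle and microtubule genes 4 rose and the other 5 did not pass the test. NEK2, a kinase that separates centrosomes, rose from 0.665, 0.879 and 0.710 CPM to 2.21, 1.78 and 1.95 CPM (1.40 ± 0.23, adjusted p = 0.00714). CKAP2, a spindle-associated protein, rose from 0.998, 1.64 and 0.718 CPM to 3.24, 2.49 and 2.84 CPM (1.37 ± 0.30, adjusted p = 0.0108). CKAP5, the microtubule polymerase also called ch-TOG, rose from 3.40, 5.05 and 3.91 CPM to 9.49, 10.6 and 9.35 CPM (1.25 ± 0.20, adjusted p = 0.00702) and moved from rank 15 of the 49 by control mean to rank 1 with Oligonol. It was one of only 2 risen genes for which Oligonol library 2 was the highest of its group; the other was RACGAP1. ASPM, which acts at spindle poles, rose from 1.49, 1.62 and 1.04 CPM to 3.32, 1.98 and 2.78 CPM (0.97 ± 0.26, adjusted p = 0.0196). HMMR, a spindle protein and hyaluronan receptor, was level, at 0.628, 0.985 and 0.700 CPM against 0.936, 0.648 and 0.788 CPM (0.04 ± 0.29, adjusted p = 0.925).

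The genes that protect and release sister chromatid cohesion also moved in opposite directions. The shugoshins SGO1 and SGO2, which protect centromeric cohesin, rose from 0.390, 0.732 and 0.380 CPM to 1.49, 0.782 and 1.53 CPM (1.31 ± 0.37, adjusted p = 0.0227) and from 0.446, 0.310 and 0.187 CPM to 0.632, 0.554 and 0.671 CPM (1.009 ± 0.35, adjusted p = 0.0436). The call of SGO2 ended under RLE scaling (adjusted p = 0.0520), DESeq2 (0.222), limma-voom (0.0594), no filter (0.126) and the replicate block (0.0839). That of SGO1 ended with no filter (adjusted p = 0.0595). Both were among the lowest members, and for SGO1 the nearest libraries of the groups were close. ESPL1, which encodes separase, fell from 5.04, 4.04 and 5.22 CPM to 2.28, 2.68 and 2.85 CPM (-0.87 ± 0.19, adjusted p = 0.0105). PTTG1, which encodes securin, the inhibitor of separase, was spread widely in controls, at 5.02, 7.15 and 11.5 CPM, and stood at 5.46, 7.25 and 7.07 CPM with Oligonol (-0.26 ± 0.30, adjusted p = 0.493).

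In cytokinesis 3 of 4 genes rose. ANLN, the actin-binding scaffold anillin, rose from 2.00, 1.80 and 2.10 CPM to 7.06, 4.30 and 5.60 CPM (1.51 ± 0.23, adjusted p = 0.00635), the smallest adjusted p of the 49. ECT2, the exchange factor that activates RhoA at the cleavage site, rose from 1.13, 1.51 and 1.02 CPM to 4.29, 2.26 and 3.86 CPM (1.51 ± 0.29, adjusted p = 0.00873). RACGAP1, the centralspindlin subunit that recruits ECT2, rose from 2.78, 4.09 and 2.96 CPM to 5.09, 6.45 and 6.25 CPM (0.85 ± 0.21, adjusted p = 0.0142). The summed level of the cytokinesis genes was 10.86 to 12.49 CPM in controls and 18.54 to 22.42 CPM with Oligonol.

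Of 3 genes of chromosome structure and proliferation, TOP2A and MKI67 rose and CDCA3 fell. TOP2A, the topoisomerase that untangles sister chromatids, rose from 1.93, 3.604 and 1.93 CPM to 5.46, 5.04 and 5.38 CPM (1.10 ± 0.26, adjusted p = 0.0133). MKI67, the Ki-67 antigen used to mark cycling cells, rose from 2.94, 2.86 and 3.34 CPM to 5.47, 3.97 and 5.33 CPM (0.70 ± 0.19, adjusted p = 0.0201). CDCA3, which promotes destruction of the kinase WEE1, fell from 3.91, 3.66 and 6.13 CPM to 1.497, 2.60 and 2.15 CPM (-1.14 ± 0.28, adjusted p = 0.0144). Calls in both directions were thus present in the entry, checkpoint, kinetochore, cohesion and chromosome structure groups, while those of the passenger complex were all falls and those of the spindle and cytokinesis groups all rises. These groups hold 3 to 9 genes, beside 26% of all tested genes called higher and 23% lower, and differences between groups were not tested. With the GC trend removed, the passenger and cytokinesis groups held 0 calls and the spindle group 1, a fall.

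The 10 members not yet described did not pass the test: CCNB2, CDC25C, BUB3, CENPE, SKA1, TPX2, DLGAP5, CKAP2L, TACC3 and PRC1. Over all 20 that did not pass, log2 fold changes ran from -0.51 to 1.23. Across members, the order of levels in controls led with SPC24 (19.7 ± 5.02 CPM, SD, n = 3), followed by CDC20 (10.2 ± 1.53), FOXM1 (10.1 ± 0.221), CDC25B (9.42 ± 0.802), AURKB (9.15 ± 1.08) and BIRC5 (9.004 ± 3.10). Below SPC24 these neighbours were within their spread of each other. With Oligonol the order led with CKAP5 (9.81 ± 0.678 CPM), FOXM1 (8.32 ± 1.21) and SPC24 (8.05 ± 1.43). Deposited low values fell with transcript length as per-length abundances do, which is what lets levels of different genes be set side by side. The slopes on a log scale were -0.94, -0.95 and -0.92 in control libraries 1 to 3. They were shallower in Oligonol libraries 1 to 3, at -0.78, -0.89 and -0.76. The part of this difference in the order of levels was not tested.

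**Figure D3:**
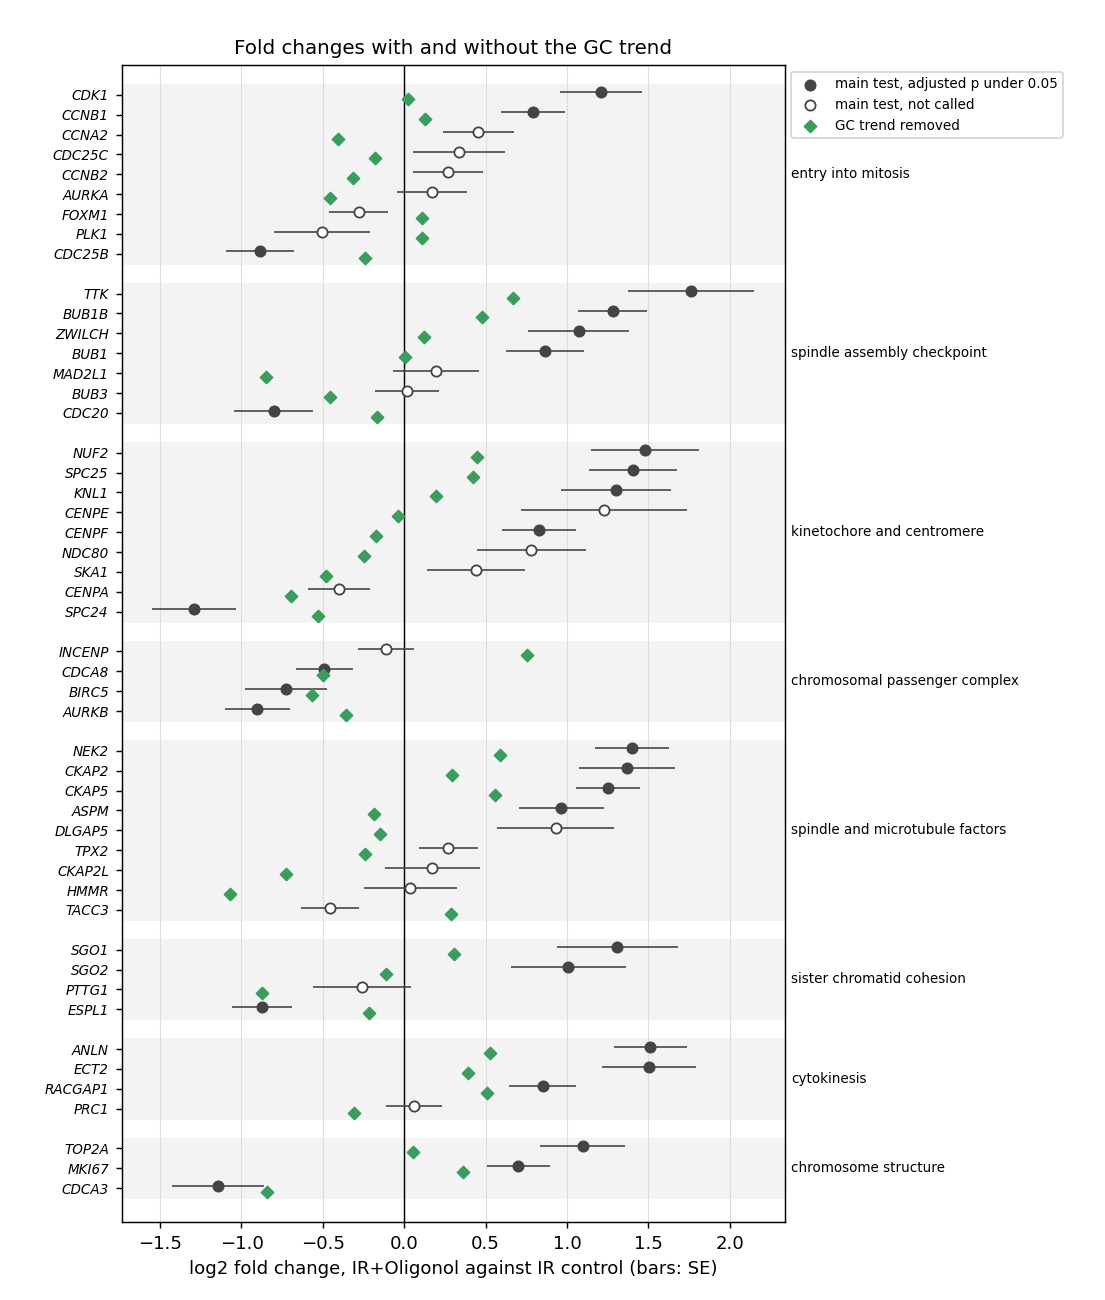
log2 fold change of each gene with its SE (circles; filled where adjusted p was under 0.05) and the same after the trend with transcript GC content was removed in each library (green diamonds), by role. Without the trend no gene is called higher, and HMMR at -1.07 and MAD2L1 at -0.85 are called lower.

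The direction of a member followed the GC content of its transcripts. GC content, taken as the median over a gene's annotated transcripts, was 35.6 to 48.3% in the 21 members that rose and 51.0 to 58.6% in the 8 that fell, with no overlap. At the third base of coding codons, which mostly leaves the amino acid unchanged, the shares were 29.65 to 47.47% and 51.12 to 75.12%. Below 40% GC, 9 of 13 members rose, where 75.1% of all tested protein-coding genes in that range were called higher. Between 40 and 45%, 10 of 14 rose (protein-coding genes 61.8%), and between 45 and 50%, 2 of 10 (33%). At 50% and above 8 of 12 fell and the other 4 did not pass the test (protein-coding genes 52.9% lower and 2.02% higher). Over the 49 members, log2 fold change and GC content had a Pearson correlation of -0.838 and a Spearman correlation of -0.779, and over 11719 protein-coding genes the values were -0.836 and -0.851. These correlations are across genes measured in the same 6 libraries, which are not independent replicates.

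**Figure D4:**
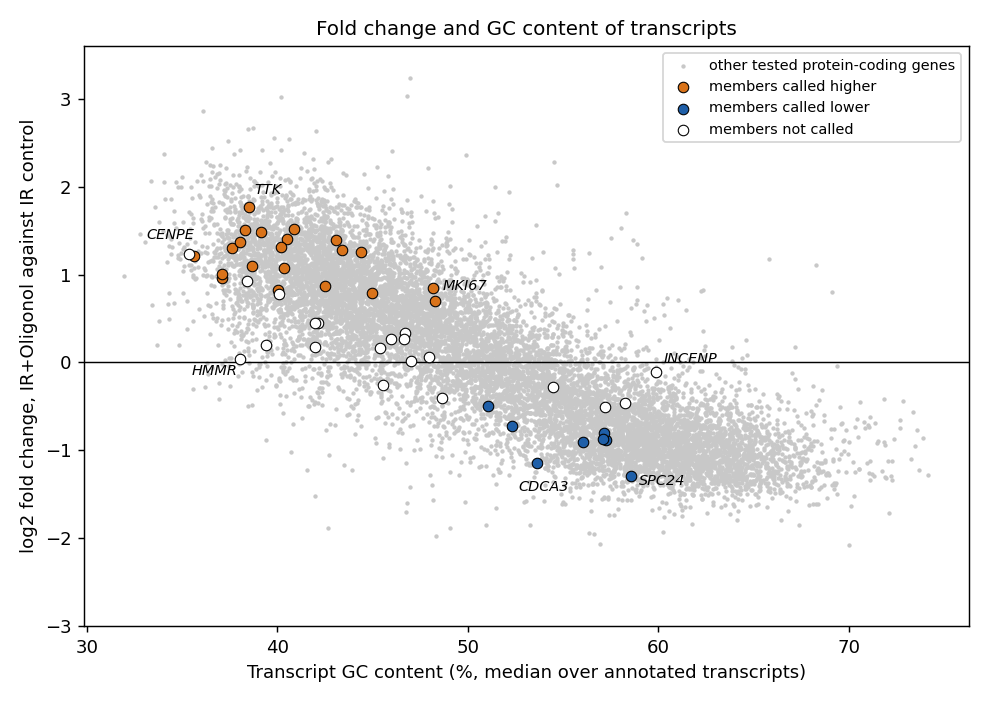
log2 fold change against transcript GC content for the 49 members (large points: orange, called higher; blue, called lower; white, not called) and other tested protein-coding genes (grey), of which 2 lie outside the drawn range of -3 to 3.6. Members called higher lie at 35.6 to 48.3% GC and members called lower at 51.0 to 58.6%, along the slope of the grey points.

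With each library's trend on GC content removed, none of the 49 rose and 2 fell, where 2.89% of 16200 tested genes were called higher and 2.56% lower (edgeR; 20 members had an unadjusted p under 0.05). Removal takes out any real change that follows GC content along with a technical one, and these cannot be told apart. The 2 that fell were members that were level before it. HMMR (38.0% GC; chromosome 5, 163460203 to 163491941, + strand) then had a log2 fold change of -1.07 ± 0.22 (adjusted p = 0.0428). MAD2L1 (39.4% GC; chromosome 4, 120055623 to 120066858, - strand) had -0.85 ± 0.18 (adjusted p = 0.0469). Both had low-GC transcripts without the rise seen in their neighbours by GC content, as the plot against GC content shows for HMMR. Neither was called once the trend on genomic span was also removed. With the replicate block added neither was called, and 0 of all genes were. With a library left out at most 1 member was called lower. With the GC content of the longest transcript HMMR was called lower and MAD2L1 was not.

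The ordering of members also changed without the trend. INCENP, with 59.9% GC the highest of the 49, stood at 0.76 ± 0.18 (adjusted p = 0.0567), and TTK at 0.67 ± 0.26 (adjusted p = 0.152). Among those that had risen, 18 of 21 remained above 0, at a median of 0.31, and CENPF, ASPM and SGO2 turned to -0.17, -0.19 and -0.11. Some of the 18 were close to 0, such as BUB1 at 0.008, CDK1 at 0.02 and TOP2A at 0.05. The 8 that had fallen remained below 0, with CDCA3 at -0.85 ± 0.23 (adjusted p = 0.0725) and SPC24 at -0.53 ± 0.19 (adjusted p = 0.131). Both sets were picked by their fold changes in the same libraries, which favours residual values of the same sign. The counts that kept their sign are therefore not separate support. Of all 49, 22 were above 0, against 52.6% of all genes tested in this way, and their median was -0.15. Residual fold changes of the members correlated with the logarithm of genomic span (Pearson 0.468, Spearman 0.477, 49 genes) and of coding length (0.439 and 0.512). Longer members thus had higher residual values, among libraries they all share. The same correlations over all protein-coding genes were not computed, so whether this is particular to the members is unknown.

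Counts of calls among other genes of mitosis and its regulation, in 8 lists, stand beside the 26% of all tested genes called higher and the 23% called lower, shares at which calls in both directions are common in any list. The median log2 fold change was 0.39 for the anaphase-promoting complex, 0.56 for condensin, 0.60 for inner and other kinetochore genes, -0.08 for the entry switch, 0.45 for DREAM and MuvB, 1.04 for centrosome duplication, -0.16 for S phase markers and -0.88 for inhibitors of cyclin-dependent kinases, against 0.15 over all tested genes. In the anaphase-promoting complex and its regulators, 5 of 18 tested genes rose and 4 fell, near those shares, and CDC27, a core subunit, rose from 2.74, 2.59 and 1.99 CPM to 8.52, 6.96 and 7.20 CPM (1.63 ± 0.20, adjusted p = 0.00601). Among condensin genes 4 of 8 rose and 1 fell. The subunit gene NCAPG rose from 1.013, 1.04 and 0.818 CPM to 3.87, 2.41 and 3.26 CPM (1.74 ± 0.24, adjusted p = 0.00620). CDC27 and NCAPG were the genes of the 8 lists called higher without the GC trend, at 0.69 ± 0.13 (adjusted p = 0.0418) and 0.66 ± 0.14 (adjusted p = 0.0485). Those called lower without it were CENPH, CKS2, MCM4 and PCNA, which are named after their values were seen.

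Of 21 tested genes in a list of inner and other kinetochore genes 8 rose and 4 fell. Of these, KNTC1, ZW10, SPDL1 and MAD1L1 are not genes of the inner kinetochore. KNTC1, which encodes the Rod subunit that works with ZWILCH, rose from 2.03, 2.01 and 3.27 CPM to 5.75, 5.75 and 5.65 CPM (1.23 ± 0.22, adjusted p = 0.00815). In the mitotic entry switch 4 of 11 rose and 2 fell, and WEE1, the kinase that holds CDK1 inactive, rose from 1.67, 1.75 and 1.75 CPM to 3.71, 3.27 and 3.52 CPM (1.02 ± 0.17, adjusted p = 0.00722). PKMYT1, the other kinase that holds CDK1 inactive and the more abundant of the pair, fell from 14.7, 15.1 and 15.3 CPM to 6.52, 9.33 and 7.06 CPM (-0.98 ± 0.20, adjusted p = 0.00993). The inhibitory kinases of CDK1 thus went opposite ways. With the GC trend removed PKMYT1 stood at 0.04 and WEE1 at 0.03, and neither passed the test.

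Of 8 centrosome duplication genes 6 rose and 2 did not pass the test, and CEP192, a scaffold of the pericentriolar material, rose from 0.596, 0.841 and 0.877 CPM to 2.19, 1.59 and 1.82 CPM (1.27 ± 0.25, adjusted p = 0.00899). Their median GC content was 41.7%. In the DREAM and MuvB complex 4 of 12 rose and 2 fell. Its histone-binding subunit RBBP4 rose from 7.69, 7.89 and 6.08 CPM to 15.3, 14.97 and 15.5 CPM (1.08 ± 0.19, adjusted p = 0.00774).

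Of 16 S phase markers 4 rose and 4 fell, which is also near the shares over all tested genes. MCM6, a subunit of the replicative helicase, rose from 1.25, 1.29 and 0.935 CPM to 2.81, 3.07 and 2.94 CPM (1.34 ± 0.20, adjusted p = 0.00629). Of the same helicase, MCM5 fell from 26.8, 32.2 and 33.1 CPM to 13.4, 21.6 and 12.7 CPM (-0.95 ± 0.27, adjusted p = 0.0219) and MCM7 from 39.8, 48.2 and 53.9 CPM to 21.5, 34.1 and 23.7 CPM (-0.84 ± 0.27, adjusted p = 0.0317), while the other 3 subunit genes listed did not pass the test. Subunits of 1 complex thus went opposite ways here too. None of the 3 passed the test with the GC trend removed (adjusted p = 0.117 for MCM6, 0.383 for MCM5 and 0.314 for MCM7). Among inhibitors of cyclin-dependent kinases 3 of 5 tested genes fell and 2 did not pass the test, at a median GC content of 59.4%. CDKN2D, the p19 inhibitor, fell from 1.85, 2.07 and 2.40 CPM to 0.722, 1.13 and 0.634 CPM (-1.35 ± 0.27, adjusted p = 0.00947).

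Single libraries weighed on the number of calls. Without control library 3, 1 member was called higher (ANLN) and none lower by edgeR, with 30 at an unadjusted p under 0.05, and the share of all tested genes called higher was 2.9%. Without control library 1 the calls were 10 higher and 6 lower, and without control library 2 they were 15 and 1. Without Oligonol library 1 they were 9 higher and 0 lower by edgeR (25 at an unadjusted p under 0.05), without library 2 they were 18 and 11, and without library 3 they were 6 and 1. Dropping a library leaves 2 in its group, and the calls over all genes shrank as well, except without Oligonol library 2. Of the 49 members, 22 overlap a gene on the other strand, and although the library kit marks strand, the sources used here do not say whether strand was used in counting. Some members overlap a gene on their own strand, such as BUB1B with BUB1B-PAK6 and CENPA with SLC35F6, which strand would not separate. Any sharing of reads with overlapping genes was not tested.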

How the data were processed

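RNA was measured in 6 libraries of SH-SY5Y cells, 3 per group, made from total RNA by a strand-marking kit and sequenced from both ends, as the labels' protocols state. Tools listed in the submitters' processing notes are kallisto 0.46.1, FastQC and edgeR, with GRCh38.p13 as the build, without their roles. The step from transcript to gene values is not described in the sources used here. The authors deposited, per gene and library, an estimated count and a scaled signal, and the signal equalled the estimated count multiplied by a constant of each library, so it was not used further. Estimated counts were not whole in 99.0 to 99.1% of values above 0 and fell with transcript length, so they are not sums of reads and the counting error behind them is unknown. They were rounded.

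With edgeR 4.0.16 in R 4.3.3, filterByExpr left 16574 genes, TMM factors were computed, and the robust quasi-likelihood test (2-sided, group as the term) was adjusted by Benjamini-Hochberg over all of them. SE is the fold change over the root of its F statistic. Of the 61860 identifiers, 58254 were matched to GENCODE 29 for length, GC content and coding sequence. Start and end were identical for 17 of the 49 members, and coordinates are those of the deposited table. To remove the GC trend, log2 CPM (prior count 2) of protein-coding genes was fitted on GC content in each library by a natural spline with 5 degrees of freedom, which entered the test as an offset. The main fit was tried on simulated data of 14876 genes with 3 libraries a group. The median absolute log2 fold change was 0.953 where 1 was put in and 1.43 where 1.5 was put in. Of 81 genes changed by 1 on the log2 scale 5 were called, and of 86 changed by 1.5, 31. Of the unchanged genes 12 were called. Far fewer genes were changed there than the 48.9% called in the data, and no GC trend was put in. These shares thus do not give the sensitivity of the test here.

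The members, lists, tests and naming rule were chosen with earlier results of these data known. The rule named up to 10 largest rises and falls with groups that do not overlap, 15 fixed members and members called without the GC trend. It also named up to 2 genes of smallest p in each other list, of which the first is described above. Of those placed second, CDC16 (log2 fold change 1.44), SMC4 (1.73), ARPP19 (1.36) and CENPJ (1.04) rose. CENPM (-1.02), LIN37 (-0.86), CDT1 (-1.04) and CDKN1A (-1.27), also placed second, fell. The remaining called members, NDC80, INCENP, PKMYT1, MCM5 and MCM7 were named after their values were seen. Alternatives were scaling by RLE, by the upper quartile, by TMM over protein-coding genes and by library totals alone, DESeq2 1.42.0, limma-voom (limma 3.58.1), other filters, counts times transcript length, a replicate block, each library left out and other GC corrections.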

Additional observations from a re-analysis of the deposited data

How the results depend on the processing

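The call counts of the members were within 1.5 times the reported ones under RLE and upper-quartile scaling, TMM over protein-coding genes, DESeq2, limma-voom, the filter of at least 10 in all libraries (42 members) and counts times transcript length, with 20 to 24 called higher and 6 to 9 lower. HMMR, at 0.04 as reported, turned to -0.03404 under RLE and -0.03015 under DESeq2, and INCENP to 0.14 under the stricter filter. Without a filter, 42070 genes were tested, 15 members were called higher and 4 lower, and 1603 of all genes lower. Calls of 10 of the 29 called members ended there. These were BIRC5, CDCA8 and SGO2, given above, and CDC25B (edgeR, adjusted p = 0.0549), BUB1 (0.0558), CDC20 (0.0998), ZWILCH (0.0690), CENPF (0.0516), SGO1 (0.0595) and RACGAP1 (0.0516). At an adjusted p under 0.01, 7 members were higher and 1 lower. Scaled by library totals alone, 44 members were higher and 0 lower (edgeR, 46 at an unadjusted p under 0.05), with 11293 of all genes higher and 37 lower, and the log2 fold changes of CDC25B (0.46), FOXM1 (1.08), PLK1 (0.78), CDC20 (0.55), CENPA (0.95), SPC24 (0.09661), AURKB (0.46), INCENP (1.29), BIRC5 (0.71), CDCA8 (0.89), PTTG1 (1.16), ESPL1 (0.50), CDCA3 (0.23), PKMYT1 (0.37), MCM5 (0.39) and MCM7 (0.52) turned.

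With the GC trend removed, 0 members were higher and 2 lower (edgeR, 20 at an unadjusted p under 0.05), with 468 of all genes higher and 414 lower, and 21 of the 49 log2 fold changes turned. These were the 10 members not described singly and CCNA2 (-0.41), FOXM1 (0.11), PLK1 (0.11), AURKA (-0.45), MAD2L1 (-0.85), CENPF (-0.17), NDC80 (-0.25), INCENP (0.76), HMMR (-1.07), ASPM (-0.19) and SGO2 (-0.11). PKMYT1, which is not a member, turned to 0.04008. With the GC content of the longest transcript, an alternative chosen after seeing the data, 2 members were higher (BUB1B and INCENP) and 4 lower (BUB3, SPC24, HMMR and CDCA3), with 740 of all genes higher and 702 lower. Values for CCNA2 (-0.28), FOXM1 (0.29), PLK1 (0.15), AURKA (-0.16), MAD2L1 (-0.73), CENPF (-0.005835), NDC80 (-0.13), INCENP (0.77), HMMR (-0.9972), ASPM (-0.06018), SGO2 (-0.05085) and PKMYT1 (0.03434) turned there. With trends on GC content and genomic span both removed, also chosen after seeing the data, 1 member was higher (NEK2) and 0 lower (edgeR, 15 at an unadjusted p under 0.05), with 442 of all genes higher and 236 lower. Values for CCNA2 (-0.14), FOXM1 (0.17), PLK1 (0.19), AURKA (-0.32), MAD2L1 (-0.62), CDC20 (0.05037), CENPF (-0.21), NDC80 (-0.24), INCENP (0.69), HMMR (-1), ASPM (-0.24), SGO2 (-0.17) and PKMYT1 (0.00208) turned there. The cause of these changes was not tested.

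No pairing by replicate number was seen: deviations of same-numbered libraries from their group means correlated at 0.087, -0.00874 and -0.147. Those of differently numbered libraries correlated at -0.186 to 0.191. With 3 libraries a group these values cannot settle whether libraries were paired. With the replicate block 21 members were called higher and 7 lower. With the replicate block and the GC trend removed, 0 were higher and 0 lower (edgeR, 17 at an unadjusted p under 0.05), with 0 of all genes higher and 0 lower (3995 at an unadjusted p under 0.05), and values for CCNA2 (-0.40), FOXM1 (0.11), PLK1 (0.13), AURKA (-0.44), MAD2L1 (-0.85), CENPF (-0.17), NDC80 (-0.29), INCENP (0.74), HMMR (-1.06), ASPM (-0.19), SGO2 (-0.09519) and PKMYT1 (0.03803) turned.

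Leaving out each library in turn, with and without the GC trend, gave 0 to 18 members higher and 0 to 11 lower, and 0 to 4576 of all genes higher and 0 to 4916 lower (edgeR; 11 to 35 members at an unadjusted p under 0.05). In the fits with a library left out, log2 fold changes that turned ranged for CCNA2 from -0.53 to 0.51, for CDK1 from -0.01891 to 1.32, for FOXM1 from -0.57 to 0.17, for PLK1 from -1.02 to 0.35, for AURKA from -0.60 to 0.18, for BUB1 from -0.07525 to 0.97, for MAD2L1 from -0.96 to 0.23, for ZWILCH from -0.0305 to 1.39, for CENPF from -0.25 to 0.91. They also ranged for NDC80 from -0.50 to 0.84, for INCENP from -0.31 to 0.88, for HMMR from -1.20 to 0.13, for ASPM from -0.23 to 0.99, for PTTG1 from -1.14 to 0.02764, for SGO2 from -0.27 to 1.19, for TOP2A from -0.11 to 1.37, for KNTC1 from -0.003762 to 1.42, for WEE1 from -0.06885 to 1.02 and for PKMYT1 from -1.33 to 0.07624. Where 2 libraries remain in a group, its spread rests on few values, and deposited values that are not read counts leave the depth behind low members such as SGO2, TTK and KNL1 unknown.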
